A study of Homo sapiens with 6 samples.

Results

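The genes described here encode the amyloid precursor protein family and the proteases that cut it: App, Aplp1 and Aplp2, the beta-secretase gene Bace1, and the gamma-secretase subunit genes Aph1a, Aph1b, Psen2, Psenen and Ncstn. They were taken by gene name, and by no cut on a value, from the deposited table of each of the 6 libraries. They are 9 of 53492 genes, and each name stood on 1 identifier. All 9 were above the filter on low values, a mean of at least 1 FPKM (fragments scaled by transcript length and library size), which 13231 genes passed. The list of names was chosen by a reader of earlier results of the same comparison, the FPKM of the GFP-CCNB1IP1 libraries set against those of the GFP libraries, so the differences between groups below are descriptions of these 9 genes and carry no test of their own.

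The libraries fall in 2 groups of 3. The GFP-CCNB1IP1 libraries are labelled as transfected with pCS2-eGFP-CCNB1IP1, an expression vector for green fluorescent protein joined to CCNB1IP1, a ubiquitin ligase known from meiotic crossing over. The GFP libraries are labelled as transfected with pCS2-eGFP-N, the vector for the fluorescent protein alone. Cells of both groups are labelled SH-SY5Y, a human neuroblastoma line, with no time after transfection given. Nothing says that the replicates came from separate cultures, so the spread between them may be technical.

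Gamma-secretase is an intramembrane aspartyl protease. Presenilin holds its active site, nicastrin (Ncstn) is its large glycoprotein subunit, PEN-2 (Psenen) aids the presenilin's own cleavage, and APH-1 acts as the scaffold on which the complex is built. It cuts the membrane stubs that remain after a sheddase has released the outer part of a type I membrane protein. When beta-secretase (BACE1) makes the cut in the amyloid precursor protein before it, the amyloid-beta peptide is released, whereas a cut by an ADAM protease falls within that peptide. APP and its relatives APLP1 and APLP2 are abundant in neurons, where they take part in adhesion and synapse function.

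All 53492 identifiers were those of mouse, so 0 matched a human gene table, and this tells only which annotation was used. The rodent homeobox gene Rhox5 had 157 to 172 FPKM in the GFP-CCNB1IP1 libraries and 160 to 165 FPKM in the GFP libraries. What follows describes mouse genes, although the labels name a human line. Mouse Ccnb1ip1 had at most 0.191 FPKM in the GFP-CCNB1IP1 libraries and 0.125 FPKM in the GFP libraries. The introduced sequence was not analysed here, so the labels were not checked by it. Of 8 markers of sympathetic neuroblasts 7 were at 1 FPKM or more in every library, and their summed level was 370 to 385 FPKM in the GFP-CCNB1IP1 libraries and 372 to 402 FPKM in the GFP libraries. The exception was Dbh, which makes noradrenaline, at 0.371 to 0.543 FPKM in the GFP-CCNB1IP1 libraries and 0.613 to 1.14 FPKM in the GFP libraries. Th was the lowest of the 7, at 2.13 to 2.55 FPKM in the GFP-CCNB1IP1 libraries and 2.34 to 2.92 FPKM in the GFP libraries. Summed markers of fibroblasts, Schwann and glial cells, immune cells and endothelium were at most 5.34 FPKM in the GFP-CCNB1IP1 libraries and 4.43 FPKM in the GFP libraries. At 1 FPKM or more in every library were 0 of 6 fibroblast, 1 of 7 Schwann and glial, 0 of 5 immune and 1 of 4 endothelial markers. Read totals were not given. Relative depth, read from the deposited intervals with the GFP mean at 1, was 0.742 to 1.04 in the GFP-CCNB1IP1 libraries and 0.950 to 1.06 in the GFP libraries.

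The 9 genes covered a wide range of levels, and their order was nearly the same in every library. FPKM are scaled by transcript length, so levels of different genes can be set side by side. Reads shared between genes and the width of the intervals, both given below, limit how closely the order can be read. App was the highest, and stood between the 98.3 and the 98.6 percentile of the genes tested. It was followed by Aplp2, Aplp1, Psenen, Aph1a, Ncstn, Psen2, Bace1 and Aph1b. App exceeded Aplp2 by 1.92 to 2.07 times, Aplp2 exceeded Aplp1 by 1.56 to 1.76 times, and Psen2 exceeded Bace1 by 1.29 to 1.76 times, each in 6 of 6 libraries. The exception in the order was Aph1a and Ncstn, whose ranges overlapped, with Aph1a higher in 5 of 6 libraries. Bace1 was the second lowest, between the 41.9 and the 46.5 percentile, and Aph1b the lowest, between the 29.0 and the 33.7 percentile. Within the 9, the substrate genes thus stood above every protease gene in each library, and the beta-secretase gene stood below each gamma-secretase gene other than Aph1b.

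**Figure D1:**
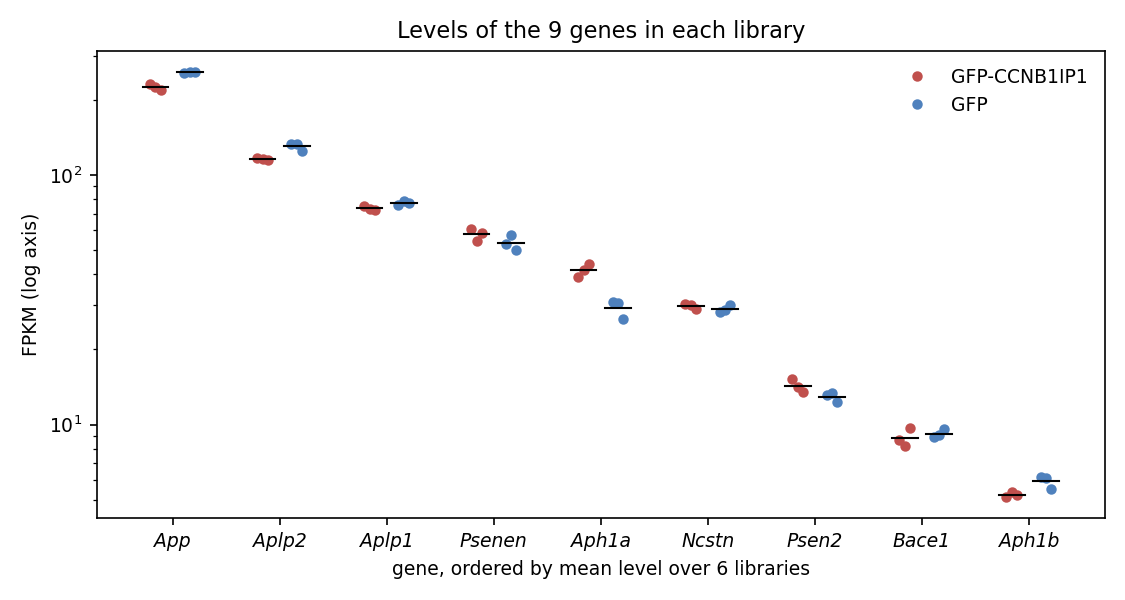
FPKM on a log axis of the 9 genes, with 1 point per library and a bar at the group mean, GFP-CCNB1IP1 to the left and GFP to the right for each gene. App, with group means of 225 FPKM in the GFP-CCNB1IP1 libraries and 257 FPKM in the GFP libraries, is at the top, and Aph1b, with 5.24 FPKM in the GFP-CCNB1IP1 libraries and 5.93 FPKM in the GFP libraries, is at the bottom.

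Between the groups, the 3 substrate genes and Aph1b were lower in the GFP-CCNB1IP1 libraries and Aph1a and Psen2 were higher, with Aph1a farthest from 0. App, Aplp2, Aplp1 and Aph1b did not overlap between the groups on the lower side and Aph1a and Psen2 on the higher side, while Psenen, Ncstn and Bace1 overlapped. Groups that do not overlap made up 17.6% of all genes tested, 8.7% higher and 8.9% lower in the GFP-CCNB1IP1 libraries, and since the names were chosen with this comparison known nothing is read from the 6 of 9. In limma over all genes, 1 of 13231, or 0.00756%, passed an adjusted p under 0.05, and 0 of the 9 did. At an unadjusted p under 0.05 there were 3 of the 9, where 11.4% of all genes tested had such a p, 5.59% higher and 5.77% lower, and nothing is read from that count either. Libraries hold bulk RNA, so fewer cells that express a gene and less of its RNA per cell cannot be told apart.

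App, the gene of the amyloid precursor protein (ENSMUSG00000022892.12, chromosome 16, 84746573 to 84970654, positions here and below are as in the tables, and no source used here names the genome build), had 232, 225 and 219 FPKM in the GFP-CCNB1IP1 libraries, against 256, 257 and 258 FPKM in the GFP libraries. Every GFP-CCNB1IP1 library was below every GFP library. The GFP libraries lay close together, with a standard deviation of 0.411% of their mean, against 2.85% in the GFP-CCNB1IP1 libraries. Within each GFP library the deposited interval bounds were 2.79 to 2.82% from the value. No difference in spread is therefore read from these 3 libraries per group. The means were 225 ± 6.41 FPKM in the GFP-CCNB1IP1 libraries and 257 ± 1.06 FPKM in the GFP libraries (SD, n = 3 each), a log2 difference of -0.19 (SE 0.040) on the log2(FPKM + 1) scale. With 1 library left out in turn it lay between -0.21 and -0.17.

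Aplp2, a paralog found in most tissues (ENSMUSG00000031996.18, chromosome 9, 31060853 to 31123111), had 117, 116 and 114 FPKM in the GFP-CCNB1IP1 libraries, against 133, 133 and 125 FPKM in the GFP libraries. The groups were apart, and GFP replicate 3 was the nearest to the other group. The log2 difference was -0.17 (SE 0.044), from -0.20 to -0.15 with 1 library left out. Aplp1, a paralog known mainly from the nervous system (ENSMUSG00000006651.9, chromosome 7, 30134407 to 30144960), had 74.8, 73.3 and 72.7 FPKM in the GFP-CCNB1IP1 libraries, against 75.6, 78.6 and 77.4 FPKM in the GFP libraries. Its groups were separated by less than 1 FPKM, between GFP-CCNB1IP1 replicate 1 and GFP replicate 1. The log2 difference was -0.068 (SE 0.043), from -0.083 to -0.055 with 1 library left out.

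Summed over the 3 paralogs, the family had 424, 413 and 406 FPKM in the GFP-CCNB1IP1 libraries, against 465, 468 and 460 FPKM in the GFP libraries. App made up 54.4 ± 0.385% of that sum in the GFP-CCNB1IP1 libraries and 55.3 ± 0.634% in the GFP libraries (SD, n = 3 each). Aplp1 made up 17.8 ± 0.123% in the GFP-CCNB1IP1 libraries and 16.6 ± 0.313% in the GFP libraries, and Aplp2 made up 27.9 ± 0.270% in the GFP-CCNB1IP1 libraries and 28.0 ± 0.809% in the GFP libraries. The shares of App and of Aplp1 did not overlap between the groups, and those of Aplp2 did. The sum was lower in every GFP-CCNB1IP1 library than in any GFP library. Shares are descriptions of the values above, not further evidence.

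Aph1a, which encodes the more widely expressed APH-1 scaffold subunit (ENSMUSG00000015750.16, chromosome 3, 95801281 to 95805600), had the difference farthest from 0 among the 9. It had 39.0, 41.6 and 44.0 FPKM in the GFP-CCNB1IP1 libraries, against 31.1, 30.6 and 26.5 FPKM in the GFP libraries. Every GFP-CCNB1IP1 library was above every GFP library, and GFP replicate 3 was the lowest. The means were 41.5 ± 2.46 FPKM in the GFP-CCNB1IP1 libraries and 29.4 ± 2.55 FPKM in the GFP libraries (SD, n = 3 each), a log2 difference of 0.49 (SE 0.076). Leaving out each library in turn gave 0.42 to 0.53. The locus overlaps that of Car14, a carbonic anhydrase gene, whose level was at most 0.548 FPKM in any library.

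Aph1b, the alternative APH-1 subunit gene (ENSMUSG00000032375.16, chromosome 9, 66682484 to 66702772), lay the other way. It had 5.15, 5.35 and 5.22 FPKM in the GFP-CCNB1IP1 libraries, against 6.17, 6.09 and 5.53 FPKM in the GFP libraries. The groups were apart by less than 1 FPKM, and GFP replicate 3 was again nearest to the other group. The log2 difference was -0.15 (SE 0.077), from -0.19 to -0.13 with 1 library left out, and -0.094 with a pseudocount of 5. Its close copy in rodents, Aph1c, begins 19503 bases beyond the end of Aph1b, so how reads were divided between them is uncertain. Aph1c was not among the 9 and had 1.91, 0.463 and 1.58 FPKM in the GFP-CCNB1IP1 libraries, against 1.70, 2.48 and 1.62 FPKM in the GFP libraries, with overlap (limma, adjusted p = 0.622).

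Because Aph1a was higher and Aph1b lower, the make-up of the APH-1 genes differed between the groups. Aph1a made up 84.7, 87.7 and 86.6% of the summed FPKM of Aph1a, Aph1b and Aph1c in the GFP-CCNB1IP1 libraries, against 79.8, 78.1 and 78.7% in the GFP libraries. Aph1b made up 11.2, 11.3 and 10.3% in the GFP-CCNB1IP1 libraries, against 15.8, 15.5 and 16.5% in the GFP libraries. Neither share overlapped between the groups. A higher Aph1a share lowers the others by itself, so these shares are descriptions of the values above, not further evidence. The summed level of the 3 genes was 48.1 ± 2.40 FPKM in the GFP-CCNB1IP1 libraries and 37.2 ± 3.16 FPKM in the GFP libraries (SD, n = 3 each).

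**Figure D2:**
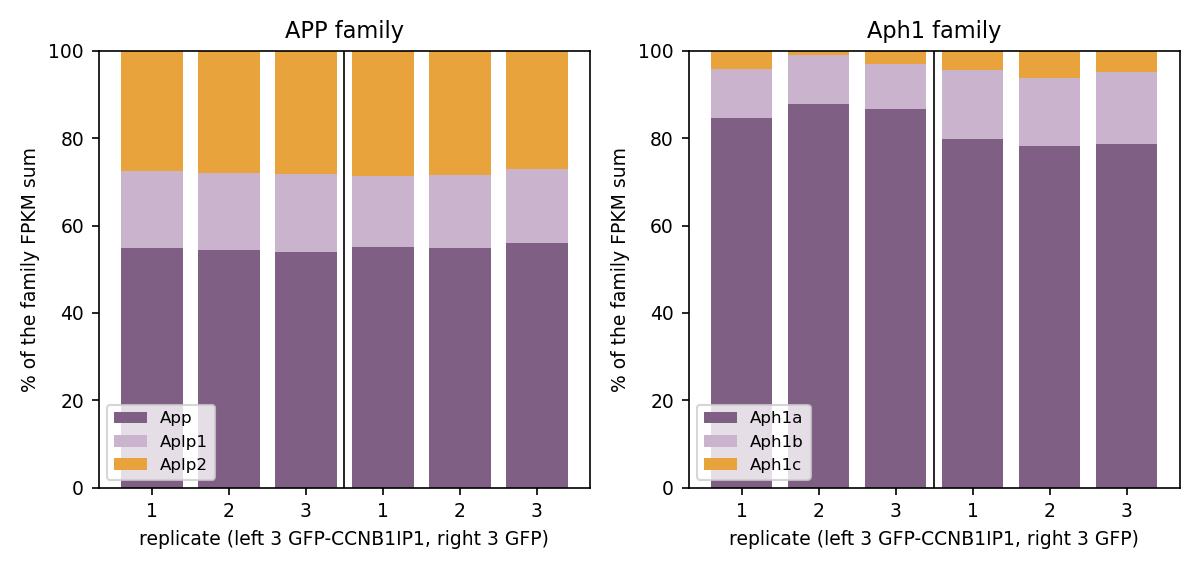
Share of each paralog in the summed FPKM of its family, in percent, as stacked bars per library, the 3 GFP-CCNB1IP1 libraries to the left of the line and the 3 GFP libraries to the right. The Aph1a bars are taller in the GFP-CCNB1IP1 libraries (84.7 to 87.7%) than in the GFP libraries (78.1 to 79.8%), and the App bars lie between 54.0 and 54.8% in the GFP-CCNB1IP1 libraries and between 54.9 and 56.1% in the GFP libraries.

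For the remaining gamma-secretase genes the ratio of the means, GFP-CCNB1IP1 over GFP, was 1.10 for Psen2, 1.08 for Psenen and 1.03 for Ncstn, against 1.41 for Aph1a. Psen2, which encodes presenilin 2, a catalytic subunit (ENSMUSG00000010609.16, chromosome 1, 180054569 to 180091003), had 15.2, 14.1 and 13.5 FPKM in the GFP-CCNB1IP1 libraries, against 13.1, 13.4 and 12.3 FPKM in the GFP libraries. The groups did not overlap, but GFP-CCNB1IP1 replicate 3 and GFP replicate 2 nearly met, and the log2 difference was 0.13 (SE 0.068), from 0.088 to 0.17 with 1 library left out. Psenen (ENSMUSG00000036835.8, chromosome 7, 30261288 to 30263052) had 60.5, 54.2 and 58.8 FPKM in the GFP-CCNB1IP1 libraries, against 52.7, 57.5 and 50.1 FPKM in the GFP libraries. Its groups overlapped, and the log2 difference was 0.11 (SE 0.067), with 0.068 without GFP replicate 3 and 0.16 without GFP replicate 2. Its locus overlaps that of the splicing factor gene U2af1l4, which averaged 18.8 FPKM in the GFP-CCNB1IP1 libraries and 17.8 FPKM in the GFP libraries. Strand was not stated, so reads in the shared stretch may not be separable.

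Ncstn (ENSMUSG00000003458.13, chromosome 1, 171893580 to 171910362) had 30.4, 30.2 and 29.0 FPKM in the GFP-CCNB1IP1 libraries, against 28.2, 28.8 and 30.2 FPKM in the GFP libraries. The groups overlapped, with a log2 difference of 0.040 (SE 0.053). It was 0.019 without GFP replicate 1 and 0.067 without GFP replicate 3. Its end overlaps the locus of Copa, a coat protein gene, which averaged 77.8 FPKM in the GFP-CCNB1IP1 libraries and 79.4 FPKM in the GFP libraries.

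Bace1, the beta-secretase gene (ENSMUSG00000032086.13, chromosome 9, 45749878 to 45775697), had 8.64, 8.22 and 9.65 FPKM in the GFP-CCNB1IP1 libraries, against 8.93, 9.11 and 9.59 FPKM in the GFP libraries. The groups overlapped, and the GFP-CCNB1IP1 group held both the highest library, replicate 3, and the lowest, replicate 2. The log2 difference was -0.055 (SE 0.078), which is smaller than its error, and it was -0.11 without GFP-CCNB1IP1 replicate 3 and -0.0095 without GFP-CCNB1IP1 replicate 2. The locus overlaps Rnf214 at 1 end, with means of 11.97 FPKM in the GFP-CCNB1IP1 libraries and 11.85 FPKM in the GFP libraries, and holds the gene models Gm16536 and Gm49338 at means of 5.85 to 6.30 FPKM in either group.

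**Figure D3:**
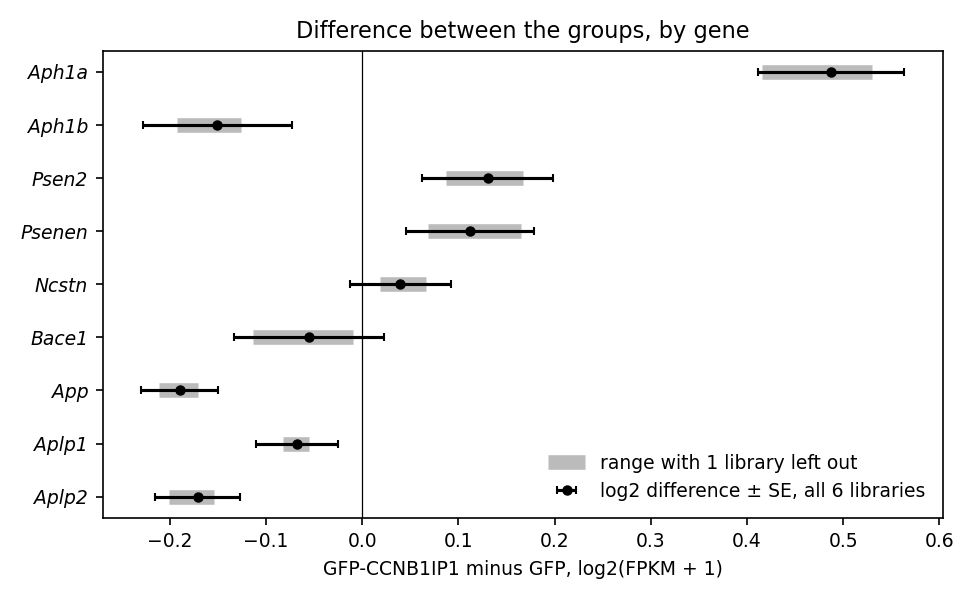
Log2 difference, GFP-CCNB1IP1 minus GFP on the log2(FPKM + 1) scale, of the 9 genes in order of role, as points with bars of 1 standard error, with the range when each library is left out in grey. Aph1a, at 0.49, stands farthest from 0, App is at -0.19 and Aplp2 at -0.17. No range crosses 0, which was fixed in advance for the 6 genes whose groups do not overlap.

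The position of the genes was varied. Aplp2, Bace1 and Aph1b lie on chromosome 9, Aplp1 and Psenen on chromosome 7 with 116327 bases between them, and Ncstn and Psen2 on chromosome 1. Aplp1 and Psenen had log2 differences of -0.068 (SE 0.043) and 0.11 (SE 0.067), and the Psenen groups overlapped. An effect of position was not tested.

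The deposited intervals, whose upper bound is read here as 2 standard errors above the value, show how well each level was fixed within a library. App had the narrowest, with bounds 2.84 to 3.06% from the value in the GFP-CCNB1IP1 libraries and 2.79 to 2.82% in the GFP libraries. Of the 9 pairings of a GFP-CCNB1IP1 with a GFP library, the App intervals overlapped in 0 and the Aplp2 intervals in 1. Aph1a had the widest of the 9 genes, with bounds 16.7 to 21.0% from the value in the GFP-CCNB1IP1 libraries and 14.9 to 18.4% in the GFP libraries. Its intervals overlapped in 5 of the 9 pairings. Among 1414 genes with a mean level between the lowest and the highest Aph1a library, the median distance was 7.82%, and 98.4% of them had narrower intervals than Aph1a. The part of this uncertainty in the Aph1a difference was not tested. Intervals of the other 6 genes overlapped in all 9 pairings.

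**Figure D4:**
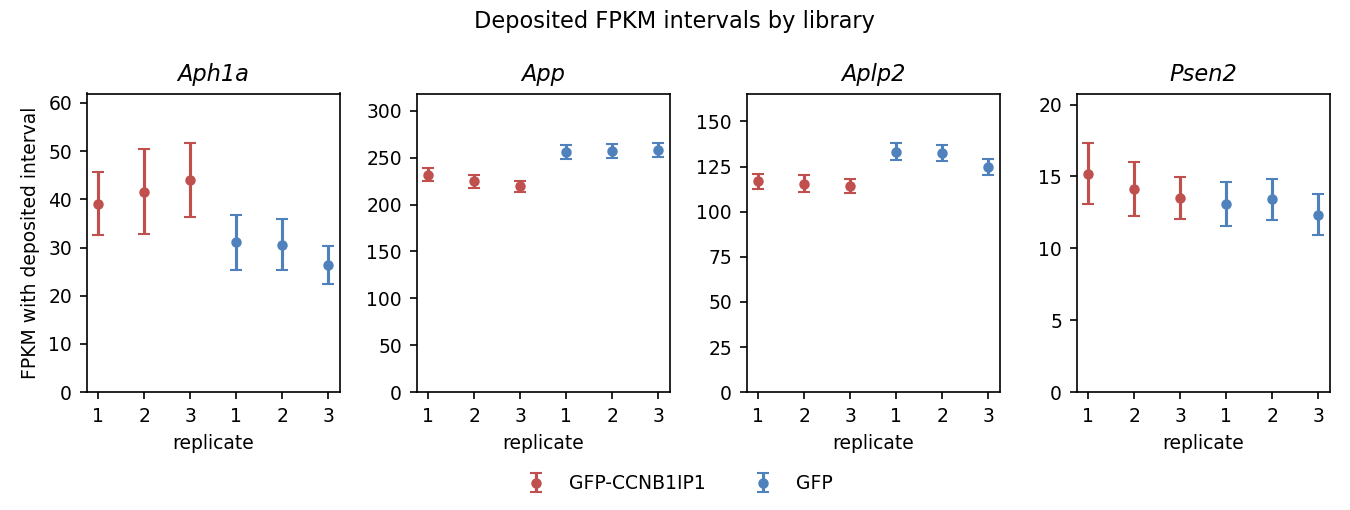
FPKM of Aph1a, App, Aplp2 and Psen2 in each library with the deposited interval as a bar, GFP-CCNB1IP1 replicates 1 to 3 on the left of each panel and GFP replicates 1 to 3 on the right, with axes that start at 0. The App bars of the groups are apart, the Aph1a bars are wide and overlap in 5 of 9 pairings, and the Psen2 bars overlap in 9 of 9.

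Genes with a profile like that of Aph1a were sought among 6953 genes with a mean of at least 10 FPKM, by the root-mean-square difference of their centred log2(FPKM + 1) values over the 6 libraries. The 5 nearest were Rsad2, an antiviral radical enzyme gene, the gene model Gm13889, Rras2, a small GTPase gene, Tgif1, a homeobox repressor gene, and Zfp106, a zinc finger gene, at distances of 0.098 to 0.11. The median distance over all candidates was 0.27, and a gene with the same value in every library would lie at 0.26. The 5 nearest lie below that median by the way they were picked. Rsad2 had 23.5, 22.0 and 22.0 FPKM in the GFP-CCNB1IP1 libraries, against 15.5, 16.9 and 15.3 FPKM in the GFP libraries. Tgif1 had 35.2, 42.2 and 38.8 FPKM in the GFP-CCNB1IP1 libraries, against 29.2, 31.2 and 28.8 FPKM in the GFP libraries. The distance takes in the difference between the groups, so these genes also differ the way Aph1a does, and they are given as a description.

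Around these 9 genes, 82 symbols of related genes were listed by role, 81 were found and 60 were above the filter. In limma 0 of the 60 passed an adjusted p under 0.05 in either direction, and the lowest adjusted p was 0.230. At an unadjusted p under 0.05 there were 2 higher and 7 lower, 15% of the 60 against 11.4% of all genes tested. The groups did not overlap for 12, or 20%, against 17.6% of all genes. Of the 60, 27 were higher and 33 lower, with a median log2 difference of -0.013, where the median of all genes tested was 0.0037.

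Partners and regulators of gamma-secretase had no called difference, with 2 of 6 higher, 4 lower and a median of -0.034, from -0.076 without GFP replicate 3 to 0.0056 without GFP replicate 2. Besides Aph1c, Rer1, a retrieval receptor that handles unassembled subunits, had 42.2 ± 1.97 FPKM in the GFP-CCNB1IP1 libraries and 43.3 ± 2.31 FPKM in the GFP libraries (limma, adjusted p = 0.859). Pld1, a phospholipase gene, had 1.11 ± 0.373 FPKM in the GFP-CCNB1IP1 libraries and 1.29 ± 0.494 FPKM in the GFP libraries (limma, adjusted p = 0.862). The other intramembrane aspartyl proteases, relatives of presenilin, had 3 of 3 higher and a median of 0.054, from 0.029 without GFP-CCNB1IP1 replicate 2 to 0.11 without GFP replicate 1. Sppl3 was lower without GFP-CCNB1IP1 replicate 1 (-0.0016) or GFP replicate 3 (-0.0014). Sppl2b had 13.4, 18.9 and 13.5 FPKM in the GFP-CCNB1IP1 libraries, against 14.6, 13.7 and 11.4 FPKM in the GFP libraries (limma, adjusted p = 0.677). Its log2 difference was 0.18 (SE 0.14), and 0.028 without GFP-CCNB1IP1 replicate 2, the highest library. Sppl2a and Sppl3 had log2 differences of 0.054 (SE 0.073) and 0.026 (SE 0.071).

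Among the other sheddases, Adam10, the main alpha-secretase of neurons, had 24.4 ± 0.601 FPKM in the GFP-CCNB1IP1 libraries and 24.0 ± 0.516 FPKM in the GFP libraries (limma, adjusted p = 0.888). Bace2, the paralog of Bace1, had 69.1 ± 4.04 FPKM in the GFP-CCNB1IP1 libraries and 71.3 ± 4.17 FPKM in the GFP libraries, so that its level was well above that of Bace1 in either group. Adam17, a sheddase of cytokines and growth factors, had 6.41, 11.3 and 10.9 FPKM in the GFP-CCNB1IP1 libraries, against 8.31, 10.8 and 10.98 FPKM in the GFP libraries, where replicate 1 was the lowest of each group. Of 9 tested genes of this list 4 were higher and 5 lower, with a median of -0.0067, from -0.022 without GFP-CCNB1IP1 replicate 3 to 0.016 without GFP-CCNB1IP1 replicate 1. Rhbdf1, an iRhom that carries ADAM17 to the cell surface, had 22.0 ± 1.57 FPKM in the GFP-CCNB1IP1 libraries and 26.4 ± 1.04 FPKM in the GFP libraries, without overlap (limma, adjusted p = 0.272). Timp3, a metalloprotease inhibitor, had 8.78 ± 0.305 FPKM in the GFP-CCNB1IP1 libraries and 7.40 ± 0.852 FPKM in the GFP libraries, also without overlap (limma, adjusted p = 0.403). Tspan14, an ADAM10 partner, had a log2 difference of 0.084 (SE 0.079).

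Adaptors that bind the tail of APP, with their relatives, were spread to both sides, with 6 of 13 higher, 7 lower and a median of -0.0025, from -0.034 without GFP-CCNB1IP1 replicate 1 to 0.048 without GFP replicate 3. Shc1, a phosphotyrosine adaptor gene, had 63.1 ± 2.40 FPKM in the GFP-CCNB1IP1 libraries and 70.6 ± 0.517 FPKM in the GFP libraries, without overlap (limma, adjusted p = 0.292). Apbb1, the gene of Fe65, which binds the APP tail, had 25.7 ± 2.58 FPKM in the GFP-CCNB1IP1 libraries and 29.8 ± 2.21 FPKM in the GFP libraries, with overlap (limma, adjusted p = 0.415). Nae1, an APP-binding subunit of the NEDD8-activating enzyme, had 18.4 ± 1.25 FPKM in the GFP-CCNB1IP1 libraries and 15.7 ± 1.33 FPKM in the GFP libraries, also with overlap (limma, adjusted p = 0.380). Genes that sort APP and BACE1 between compartments had 9 of 13 higher, 4 lower and a median of 0.045, from 0.036 to 0.056 over the alternatives. Lrp1, an endocytic receptor that binds APP, had 17.9 ± 2.05 FPKM in the GFP-CCNB1IP1 libraries and 16.0 ± 0.884 FPKM in the GFP libraries (limma, adjusted p = 0.545). The retromer gene Vps26a and the reticulon gene Rtn4 had log2 differences of 0.11 (SE 0.061) and 0.10 (SE 0.070).

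Proteases that break down amyloid-beta had 1 of 5 tested genes higher, 4 lower and a median of -0.075, which was -0.037 without GFP replicate 3. Ece2, an endothelin-converting enzyme gene, had 10.5 ± 0.946 FPKM in the GFP-CCNB1IP1 libraries and 12.2 ± 0.879 FPKM in the GFP libraries (limma, adjusted p = 0.428). Ace and the mitochondrial peptidase gene Pitrm1 had log2 differences of -0.14 (SE 0.072) and -0.075 (SE 0.053). Of 22 listed genes of other proteins cut by BACE1, gamma-secretase or both, 11 were below the filter. Of the 11 tested genes 2 were higher and 9 lower, with a median of -0.16. Over all 13231 genes tested 6429 were lower. The list was chosen with earlier results of these data known, so nothing is read from the 9. The 3 genes named next have the lowest p of the list. L1cam, an axonal adhesion gene, had 108 ± 4.67 FPKM in the GFP-CCNB1IP1 libraries and 129 ± 7.24 FPKM in the GFP libraries, without overlap (limma, adjusted p = 0.230). Sez6, a neuronal BACE1 substrate gene, had 13.8 ± 0.674 FPKM in the GFP-CCNB1IP1 libraries and 15.6 ± 0.218 FPKM in the GFP libraries, without overlap (limma, adjusted p = 0.371). Cadm1, a synaptic adhesion gene, had 26.9 ± 2.62 FPKM in the GFP-CCNB1IP1 libraries and 30.5 ± 0.233 FPKM in the GFP libraries, without overlap (limma, adjusted p = 0.419). The median of these substrates lay between -0.18 and -0.077 over the alternatives, and was -0.077 without GFP-CCNB1IP1 replicate 3, -0.078 with a pseudocount of 5 and -0.083 with no filter on low values.

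**Figure D5:**
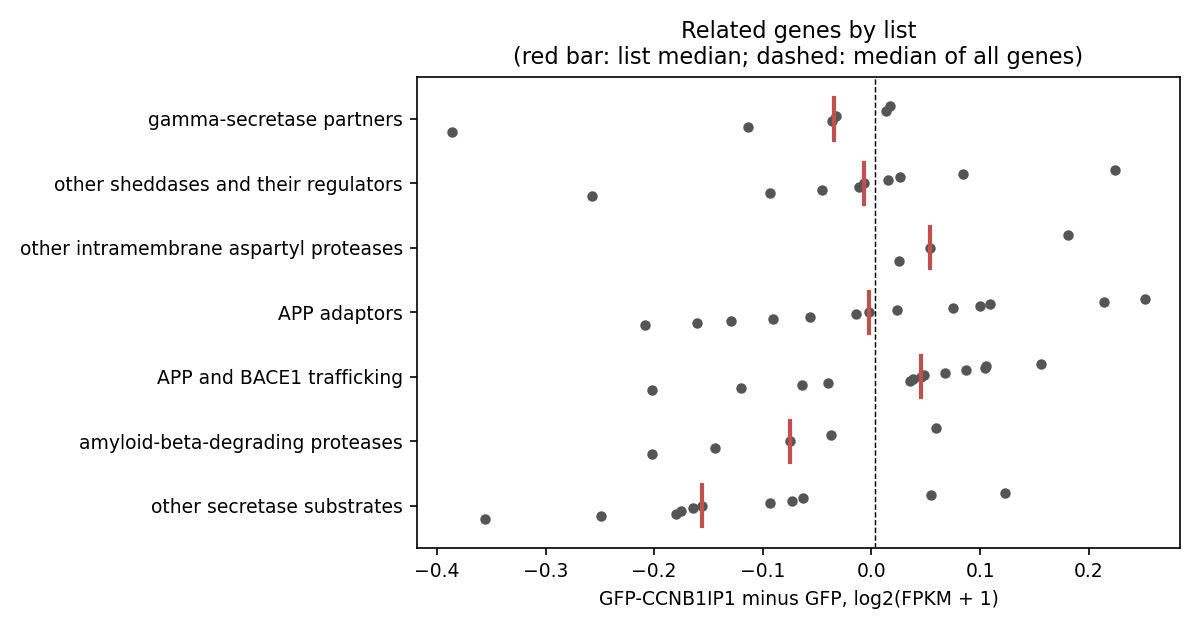
Log2 difference, GFP-CCNB1IP1 minus GFP on the log2(FPKM + 1) scale, of the 60 related genes above the filter, 1 point per gene, by list, with the list median as a red bar and the median of all genes tested as a dashed line. The medians lie between -0.16, for the other secretase substrates, and 0.054, for the other intramembrane aspartyl proteases.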

How the data were processed

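Polyadenylated RNA of 6 libraries was sequenced. The submitters' processing notes name HISAT2 and Cufflinks without a version, and no source used here gives the build, annotation or strand. Per the file headers, each library's deposited table holds FPKM by gene with interval bounds. Rows of 1 identifier were summed, as for 38 identifiers, and FPKM were not rescaled. Starts, read as counted from 0, are given from 1. Genes with a mean of at least 1 FPKM were fitted on log2(FPKM + 1), which understates differences of low genes, with limma 3.58.1 in R 4.3.3 (mean-variance trend, no block, Benjamini-Hochberg over all 13231 genes). An exact permutation test of 3 against 3 cannot reach 0.05. On simulated data of this comparison (5 draws of 13231 genes, altered genes drawn from those well above the filter), 75% of log2 differences of 0.5 and 97.2% of those of 1 were found, with 44 false calls in all. Each draw held many altered genes, which loosens the cutoff on the adjusted p. In the data 1 gene passed, so these shares do not tell how often such differences would be found here. Depth is unknown beyond the relative depth, from genes with 5 to 50 implied fragments. Across genes, which are not independent replicates, log2 values correlated at 0.985 to 0.988 for libraries of 1 group and at 0.984 to 0.986 for libraries of different groups.

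The 9 genes and the lists were chosen with earlier results of these data known. The text names all 9, the 3 listed genes per list with the lowest p, Aph1c, Bace2, Adam10 and Adam17, and the 5 nearest profiles. Dbh, Th, Rhox5, Ccnb1ip1 and overlapping genes, and the low genes in the closing section, were added after values were seen. Alternatives were other scalings, pseudocounts and filters, a replicate block, no trend, the highest row of an identifier, and each library left out.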

Additional observations from a re-analysis of the deposited data

How the results depend on the processing

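None of the 9 genes passed an adjusted p under 0.05 under any of the 16 alternatives, and each kept the sign of its difference. For the 6 genes whose groups do not overlap, leaving out a library or changing the pseudocount could not have changed the sign. The filters, the replicate block, no trend and the highest row cannot change these 9 differences, and gave the same values again. Of 144 values, with these repeats counted, 143 moved by less than the spread between replicates. Aph1b moved to -0.094 with a pseudocount of 5. The count of genes higher over the whole table, 1 as reported, was 0 in limma without the trend, without a filter on low values and at a pseudocount of 5. The count of genes lower, 0 as reported, was 1 with TPM. With each library left out in turn the counts were 0 to 2 higher and 0 to 2 lower: 2 higher without GFP-CCNB1IP1 replicate 2, 2 higher and 2 lower without GFP replicate 1, and 0 without GFP replicate 2 or 3. With the replicate number as a block the count of genes higher was 0; same-numbered libraries deviated together by correlations of only -0.011 to 0.023, so the numbers are not taken to pair them. The cause of these moves was not tested. Of 112 list medians, 103 moved by less than the spread between replicates. These include the replicate block and no trend, which cannot change a median, and the highest row, which left the medians as they were. The medians of the gamma-secretase partners, of the sheddases and of the adaptors took the other sign under 1, 4 and 4 alternatives. Under the 3 other scalings the median of all genes lay between -0.0070 and 0.0025. Read totals were not given, and the deposited intervals overlapped in all 9 pairings of libraries across the groups for 6 of the 9 genes, in 5 for Aph1a, in 1 for Aplp2 and in 0 for App.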

Other observations

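Several genes of amyloid-beta handling were at or near 0 in these libraries. Of the 81 related genes found, 21 were below the filter and 5 of them were listed at 0 in every library. Mme, the gene of neprilysin, an amyloid-beta-degrading protease, was among the 5, and Ece1 reached at most 0.101 FPKM in any library. Of the other degrading proteases, Ctsd, the lysosomal cathepsin D gene, had 270.0, 261 and 282 FPKM in the GFP-CCNB1IP1 libraries, against 277, 275 and 281 FPKM in the GFP libraries, and Ide, the insulin-degrading enzyme gene, had 14.2, 11.9 and 15.2 FPKM in the GFP-CCNB1IP1 libraries, against 14.0, 12.8 and 12.5 FPKM in the GFP libraries. Sorl1, a sorting receptor of APP, reached at most 0.356 FPKM in any library. Among other secretase substrates, Erbb4, Efnb1, Dcc and Scn2b were listed at 0 in every library and Chl1 reached at most 0.0181 FPKM, while Ngfr, a neurotrophin receptor gene, had 106, 105 and 103 FPKM in the GFP-CCNB1IP1 libraries, against 113, 104 and 114 FPKM in the GFP libraries.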
